A study of Mus musculus with 6 samples.

Results

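Genes for the supply, binding, synthesis and breakdown of retinoic acid were examined in mouse hindbrain tissue at E10.5, in Hoxb1 mutants and in wild type. The genes were Crabp1, Crabp2, Rbp4, Aldh1a2, Aldh1a3, Cyp26a1, Cyp26b1, Rdh10 and Dhrs3, chosen by name. Every probe set that the platform annotation lists with 1 of these symbols alone was taken, which gave 10 of the 22626 probe sets tested, for 8 of the 9 genes. Aldh1a3 has 3 probe sets and the other 7 genes have 1 each. Cyp26b1 has no probe set under its name in the annotation used here and was not analysed here.

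Each group held 3 arrays, Hoxb1 mutant and wild type, all of stage E10.5. Each array was hybridised with total RNA from a pool of rhombomere 4 segments of several embryos, and the submitters call the pools independent biological replicates. The labels give neither the mutant allele, nor whether the mutants were homozygous, nor the strain. Rhombomere 4 is the hindbrain segment that expresses Hoxb1, and per the labels the tissue also took in branchial arch tissue beside it. In such bulk tissue, fewer cells of a type and less RNA per cell cannot be told apart.

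Retinoic acid is made from vitamin A in several steps. Rbp4 carries retinol in the blood, Rdh10 oxidises it to retinaldehyde, and the Aldh1a enzymes oxidise retinaldehyde to retinoic acid, while Dhrs3 reduces retinaldehyde back to retinol. Within the cell Crabp2 hands retinoic acid to its nuclear receptors and Crabp1 holds it in the cytosol, and the Cyp26 enzymes break it down. In the early embryo retinoic acid from the mesoderm beside the caudal hindbrain helps to set segment identity, and Hoxb1 is itself among the genes it switches on.

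Intensities are linear, in the array units of the deposited table. Control probe sets for bacterial RNA, to which no mouse transcript should bind, reached 122 at most, with 61.5 as their 95th percentile, and 61.5 is used as the background level. Hoxb1, the targeted gene, gave 60.8, 35.3 and 50.03 in mutants, against 341, 378 and 588 in wild type, so all 3 mutant arrays lay below background. The labels do not say whether its probe set covers sequence that the mutation removes. Signal for 18S ribosomal RNA (mean log2 over its probe sets) lay between 6.36 and 7.03 on 4 arrays but was 12.1 in wild-type replicate 2 and 11.3 in wild-type replicate 3. Of 9 measured markers of rhombomere 4 and its neighbours, 7 lay above background on all 6 arrays, Hoxb2, Hoxa2, Isl1 and Gata2 among them, as did the arch mesenchyme markers Prrx1 and Twist1. All 9, the targeted gene Hoxb1 included, had a lower mean in mutants, against 54.2% of all probe sets tested. For Hoxa2 and Egr2 the difference was only -0.0045 and -0.041. At an unadjusted p under 0.05 limma called 4, against 5.76% of all. These were the targeted gene Hoxb1, Nkx2-2 (-0.82), Gata3 (-0.53) and Phox2a (-0.89), the last above background on 2 of 3 mutant arrays. The summed intensity of the 9, Hoxb1 included, was 3719 to 4149 in mutants and 4873 to 5263 in wild type (lowest to highest array), without overlap. The part of this in the members' levels was not tested. Differences below are mutant minus wild type in log2(intensity + 16), a scale that understates the change of dim probe sets. Tests are those of limma, adjusted over all 22626 probe sets, where a median standard error was 0.16. The intensity of a probe set depends on its own probes, so levels are compared between arrays and not between genes.

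The promoter window of Cyp26a1 holds the letters of a retinoic acid response element, the kind of site through which retinoic acid is known to raise this gene. The 250 bases before the RefSeq start site of mouse Cyp26a1 (GRCm38.p6, chr19:37697558-37697807, plus strand) are shown because its level is given below, and the gene is known to be induced by retinoic acid, as Dhrs3 is too. Capitals mark the motif.

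Cyp26a1: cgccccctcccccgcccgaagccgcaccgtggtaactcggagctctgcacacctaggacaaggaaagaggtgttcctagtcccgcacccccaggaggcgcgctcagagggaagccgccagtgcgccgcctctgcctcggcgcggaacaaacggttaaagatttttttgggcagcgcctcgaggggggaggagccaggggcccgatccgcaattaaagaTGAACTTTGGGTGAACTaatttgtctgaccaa

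The motif searched was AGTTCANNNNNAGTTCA on both strands, a pair of direct repeats 5 bases apart. It was found on the minus strand, 16 to 32 bases before the start site. RefSeq promoter windows, each from 250 bases before to 50 after a start, held it in 8 of 32851 cases, or 0.0244%. Windows were present for 6 of the 9 genes (9 windows), and 1 of these held the motif, that of Cyp26a1. The half-site AGTTCA alone, which the motif contains, was in 14.0% of all windows and in 1 of the 9. A match is a description of letters and not a measured site. Only this exact spelling, the one that Cyp26a1 holds, was searched. The counts therefore do not show how many windows, of members or of other genes, hold other forms of response element.

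None of the 10 probe sets passed the test. Their mean was lower in mutants in 9 of 10, against 54.2% of all probe sets tested, and the median difference was -0.18, against -0.02 over all probe sets. At an adjusted p under 0.05 limma called 0 of the 10, and 0% of all 22626 probe sets. At an unadjusted p under 0.05 it called 1 of the 10, an Aldh1a3 probe set below background on every array, against 5.76% of all. The same probe set was the 1 of 10 in which the groups did not overlap, against 12.0% of all probe sets. Both shares, at 1 in 10, say little about a set of this size. The targeted gene Hoxb1, with a difference of -2.78, also missed the adjusted threshold (limma adjusted p = 0.0695). Missing it therefore does not show a lack of change. Of the 10, 6 lay above background on all 6 arrays (Rbp4, Crabp1, Crabp2, Rdh10, Dhrs3 and Cyp26a1), 2 rose above it on 1 wild-type array each, and 2 lay below it throughout. All of the former 6 had a lower mean in mutants, Rbp4 by -0.03 only, against 52.9% of all such probe sets. At an unadjusted p under 0.05 limma called 0 of these 6, against 752 of all 15431 such probe sets.

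**Figure D1:**
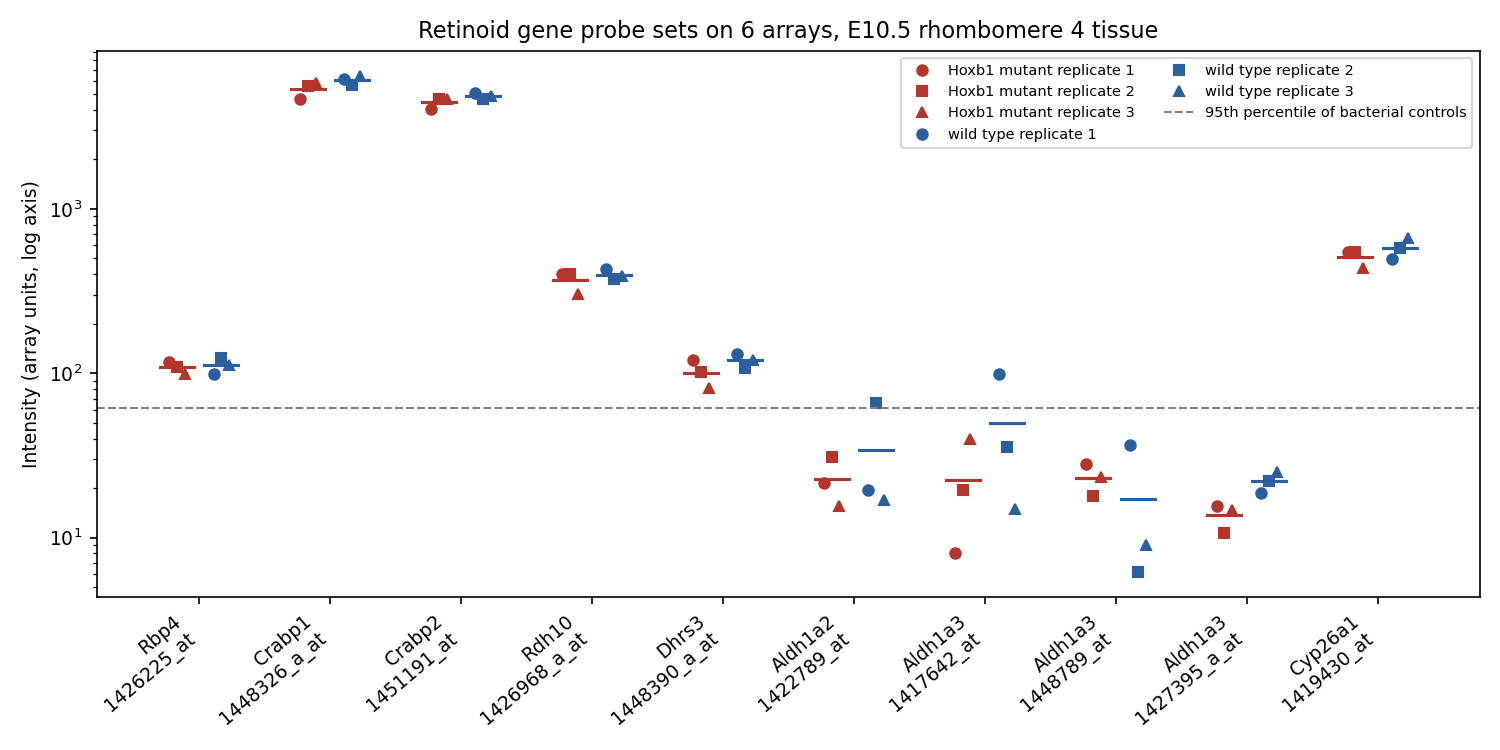
Intensity (array units, log axis) of each of the 10 retinoid gene probe sets on the 3 Hoxb1 mutant arrays (red, left) and the 3 wild-type arrays (blue, right), with 1 symbol per replicate number and a bar for each group mean. The dashed line is the 95th percentile of bacterial controls, 61.5; the Aldh1a2 probe set and the 3 Aldh1a3 probe sets lie mostly below it, and in the other 6 the symbols of the groups overlap.

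The supply of retinol was represented by Rbp4, which was close to wild type. Its probe set 1426225_at gave 118, 109 and 99.4 in mutants, against 99.0, 124 and 113 in wild type. The lowest and the highest value were both from wild-type arrays, and the mutant values lay between them. Means were 109 ± 9.07 in mutants and 112 ± 12.4 in wild type (SD, n = 3 each), a difference of -0.03 (SE 0.13, 95% interval -0.33 to 0.27, limma adjusted p = 0.977). The values lay above the background level of 61.5 but near the brightest bacterial control value of 122. Rbp4 is made in quantity by yolk sac and liver. The summed intensity of 9 markers of endoderm, yolk sac and liver ran from 1792 to 4394 on mutant arrays and from 2170 to 2784 on wild-type arrays. Ttr, which carries Rbp4 in the blood and is also counted among the retinoid genes below, made up most of that sum, at 3423, 2039 and 985 in mutants, against 1768, 1674 and 1398 in wild type. Of the 9 markers 5 had a lower and 4 a higher mean in mutants, 4 lay above background on all arrays, and Afp lay below it on all 6. The part of such cells in the Rbp4 signal was not tested. The Rbp4 difference turned to 0.12 with the 18S signal as a covariate, and to 0.022 with quantile normalization or with array medians centred.

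Both cellular retinoic acid binding proteins had a lower mean in mutants without passing the test. Crabp1, a protein of hindbrain neurons and cranial crest, gave 4627, 5582 and 5861 with probe set 1448326_a_at in mutants, against 6139, 5679 and 6464 in wild type. Mutant replicate 1 was the lowest array, and mutant replicate 3 lay above wild-type replicate 2, so the groups overlapped. Means were 5357 ± 647 in mutants and 6094 ± 394 in wild type (SD, n = 3 each), a difference of -0.19 (SE 0.13, 95% interval -0.51 to 0.13, limma adjusted p = 0.856). Without mutant replicate 1 it was -0.089, and with the 18S covariate -0.24.

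Crabp2 gave 4049.7, 4681 and 4673 with probe set 1451191_at in mutants, against 5089, 4668 and 4850.0 in wild type. Mutant replicate 1 was again the lowest array, and mutant replicates 2 and 3 lay just above wild-type replicate 2. Means were 4468 ± 362 in mutants and 4869 ± 211 in wild type (SD, n = 3 each), a difference of -0.13 (SE 0.12, 95% interval -0.40 to 0.15, limma adjusted p = 0.879). Without mutant replicate 1 it was -0.057, and with the 18S covariate -0.20. Among the brightest 10% of all probe sets, 36.0% had a lower mean in mutants and the median difference was 0.04, so both Crabp genes lay below the middle of probe sets as bright as they are. The counts of marker genes that follow stand beside 54.2% of all probe sets with a lower mean in mutants. Of the 13 genes of the cranial crest and arch mesenchyme list, 11 had a lower mean in mutants. Their summed intensity was 8040.1 to 8719.8 in mutants and 8785 to 10659.6 in wild type (lowest to highest array). For 8 neural progenitor genes, 6 of them with a lower mean in mutants, it was 9277 to 10007 in mutants and 10285 to 11722 in wild type. Of 9 neuronal genes 8 had a lower mean, and their summed intensity, 13081 to 16745 in mutants and 15819 to 18687 in wild type, overlapped between groups. All 6 genes of meninges precursors and mesenchyme had a lower mean, and their sums, 8189 to 9168 in mutants and 9351 to 9851 in wild type, did not overlap. Among other lists, 3 of 7 genes of surface ectoderm and epithelium and 2 of 6 of primitive erythroid cells had a lower mean. Endothelium had 5 of 7 and macrophages 5 of 6 with a lower mean. The sums of each of these other lists overlapped between groups. The part of these cells in the Crabp levels was not tested.

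Retinaldehyde is made by Rdh10 and removed by Dhrs3, and neither gene passed the test. Rdh10 gave 402, 403 and 302 with probe set 1426968_a_at in mutants, against 429.7, 374 and 388 in wild type. Mutant replicate 3 was the low array, while the other mutant arrays lay within the wild-type range. Means were 369 ± 58.0 in mutants and 397 ± 29.0 in wild type (SD, n = 3 each), a difference of -0.11 (SE 0.15, 95% interval -0.47 to 0.25, limma adjusted p = 0.921). Without mutant replicate 3 it turned to 0.022.

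Dhrs3, which is itself induced by retinoic acid, gave 120.1, 101 and 81.5 with probe set 1448390_a_at in mutants, against 131, 107 and 121 in wild type. Mutant replicate 3 was again lowest, and mutant replicate 1 lay above wild-type replicate 2. Means were 101 ± 19.3 in mutants and 119.7 ± 11.9 in wild type (SD, n = 3 each), a difference of -0.22 (SE 0.16, 95% interval -0.60 to 0.15, limma adjusted p = 0.856). Among the 6 probe sets above background on all arrays this was the lowest difference, and without mutant replicate 3 it was -0.0999. Except in wild-type replicate 1, the values lay below the brightest bacterial control value of 122.

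The aldehyde dehydrogenases that make retinoic acid were at background on most arrays. Aldh1a2, the main retinoic acid synthesising enzyme of the embryo's mesoderm, gave 21.5, 30.9 and 15.6 with probe set 1422789_at in mutants, against 19.4, 65.8 and 16.9 in wild type. Wild-type replicate 2, at 65.8, was the one array above background, and the other 5 arrays lay together. With dimmer arrays set to the background level, wild type was 1.02-fold higher, which rests on wild-type replicate 2 alone and is no lower bound. The measured means were 22.7 ± 7.70 in mutants and 34.0 ± 27.6 in wild type (SD, n = 3 each), a difference of -0.26 (SE 0.36, 95% interval -1.13 to 0.61, limma adjusted p = 0.925), which turned to 0.16 without wild-type replicate 2. Of 9 markers of paraxial and head mesoderm, 6 lay above background on all arrays. Their summed intensity was 2216 to 2507 in mutants and 2380 to 2827 in wild type.

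Aldh1a3, which makes retinoic acid in the eye, nose and ear primordia, was read by 3 probe sets, and these did not move together. Probe set 1417642_at gave 8.04, 19.5 and 40.01 in mutants, against 99.4, 35.5 and 14.98 in wild type. Wild-type replicate 1 alone lay above background. With dimmer arrays set to background, wild type was 1.17-fold higher, which rests on that array alone and is no lower bound. The measured difference was -0.65 (SE 0.52, 95% interval -1.88 to 0.58, limma adjusted p = 0.866), or -0.14 without that array. With the 18S covariate it was -1.58 (limma adjusted p = 1.000), and without wild-type replicates 2 and 3 it was -1.67 (limma adjusted p = 0.999), where that same array is the only wild-type array left.

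Probe set 1448789_at of Aldh1a3 gave 27.9, 17.8 and 23.4 in mutants, against 36.5, 6.13 and 9.06 in wild type, all below background. Wild-type replicate 1 was the highest array and the other wild-type arrays the lowest, and the difference was 0.34 (SE 0.33, 95% interval -0.44 to 1.12, limma adjusted p = 0.885). Its sign turned to -0.36 with the 18S covariate and to -0.43 without the 2 wild-type arrays of high 18S signal. It was 0.099 without wild-type replicate 2, 0.19 without wild-type replicate 3 and 0.72 without wild-type replicate 1. Probe set 1427395_a_at gave 15.6, 10.7 and 14.7 in mutants, against 18.7, 22.1 and 25.2 in wild type, all below background too. Here the highest mutant value was below the lowest wild-type value, with a difference of -0.36 (SE 0.13, 95% interval -0.66 to -0.05, limma adjusted p = 0.833). As both groups were below background, no fold is given for either probe set. The otic vesicle and placode list holds markers of a place where Aldh1a3 is known to be made. All 8 of its measured genes had a lower mean in mutants, against 54.2% of all probe sets. Their summed intensity was 1335 to 1464 in mutants and 1604 to 1971 in wild type, and their part in the Aldh1a3 signal was not tested.

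**Figure D2:**
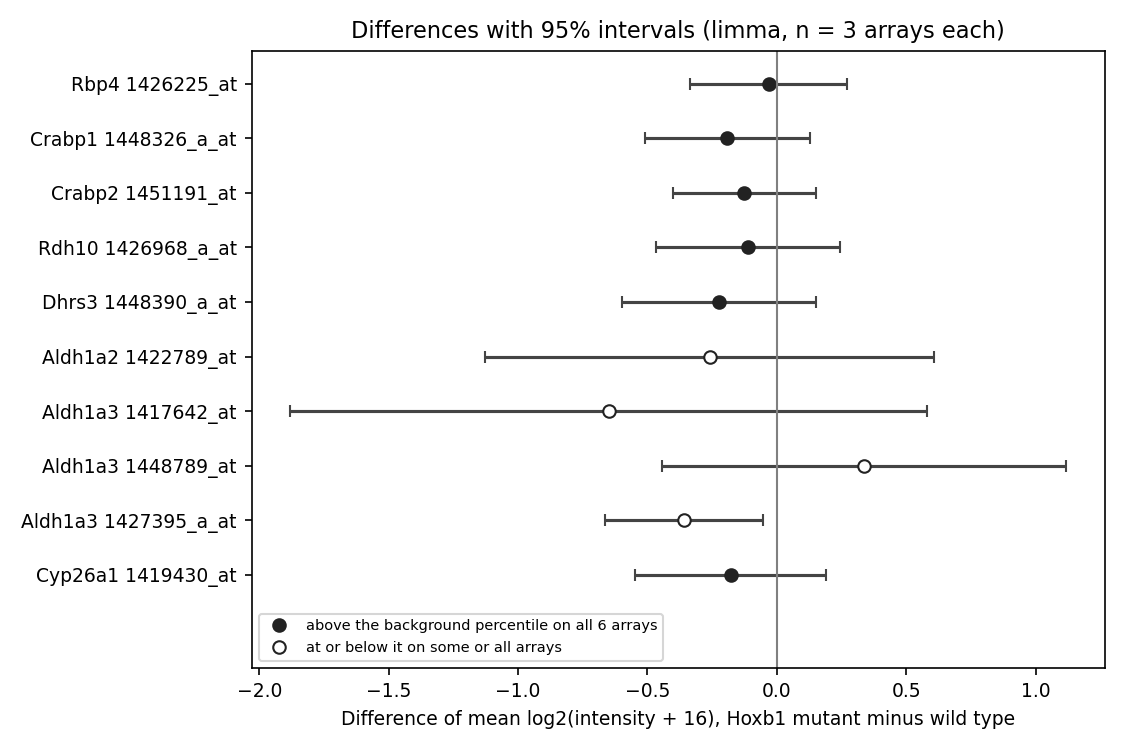
Log2 difference, Hoxb1 mutant minus wild type, of each of the 10 probe sets with its 95% interval from limma (n = 3 arrays each); filled circles are probe sets above background on all 6 arrays. The 6 filled intervals all include 0, and the 1 interval that does not, from -0.66 to -0.05, belongs to an Aldh1a3 probe set below background on every array.

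Breakdown was represented by Cyp26a1, whose promoter letters are shown above. It gave 543, 548 and 439 with probe set 1419430_at in mutants, against 498, 579 and 663 in wild type. The values of wild-type replicates 2 and 3 lay above all mutant values, while wild-type replicate 1 lay within the mutant range. Means were 510.0 ± 61.3 in mutants and 579.9 ± 82.4 in wild type (SD, n = 3 each), a difference of -0.18 (SE 0.15, 95% interval -0.55 to 0.19, limma adjusted p = 0.877). Wild-type replicates 2 and 3 are also the arrays of high 18S signal. With the 18S signal as a covariate the Cyp26a1 difference was 0.0010 (limma adjusted p = 1.000). Without mutant replicate 3 it was -0.077, and without wild-type replicate 3 it was -0.079. Without both arrays of high 18S signal it was 0.026 (limma adjusted p = 0.999), a fit in which the 1 wild-type array left is assumed to vary like the mutants.

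**Figure D3:**
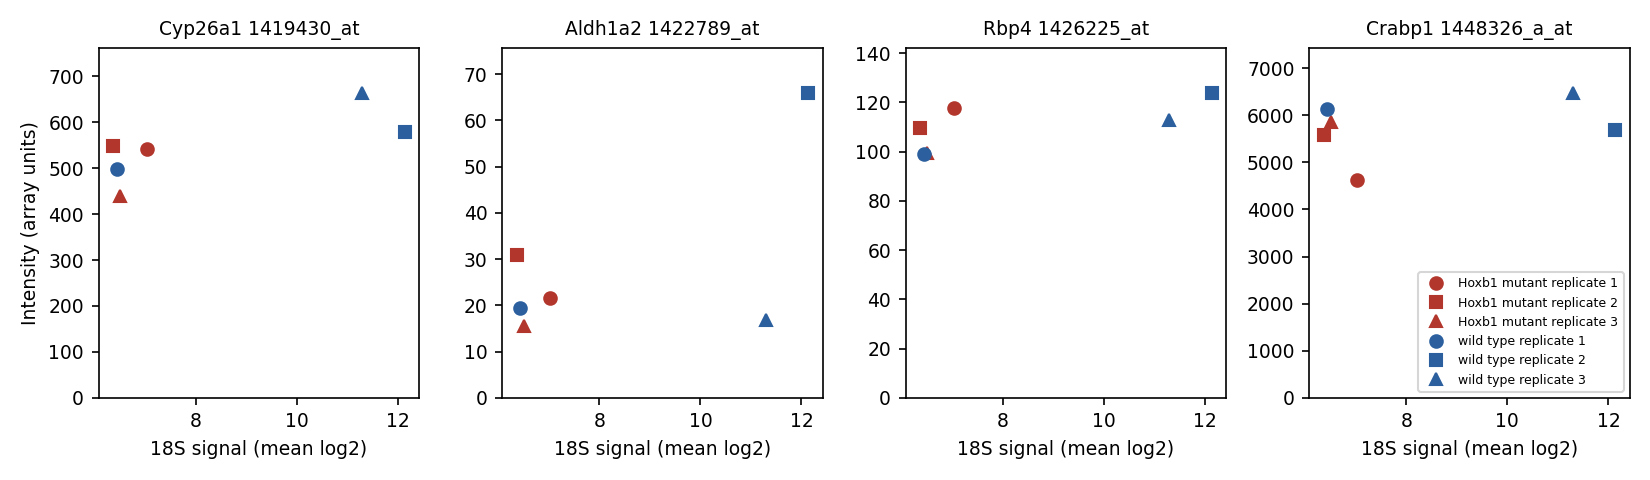
Intensity (array units, axes from 0) of Cyp26a1, Aldh1a2, Rbp4 and Crabp1 against the mean log2 signal of the 18S ribosomal RNA control probe sets on each array, with Hoxb1 mutant arrays in red and wild-type arrays in blue. Wild-type replicates 2 and 3 stand apart at 12.1 and 11.3; Cyp26a1 was highest on these arrays, Rbp4 and Aldh1a2 were highest on replicate 2, and the Crabp1 value of wild-type replicate 1, of low 18S signal, lay between theirs.

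The arrays on which members were low differed from gene to gene. Of the 6 probe sets above background on all arrays, Crabp1 and Crabp2 were lowest on mutant replicate 1. Cyp26a1, Rdh10 and Dhrs3 were lowest on mutant replicate 3, and Rbp4 on wild-type replicate 1. Mutant replicate 3 also had the lowest array median, 187, and mutant replicate 1 the highest, 214. The part of array brightness in these patterns was not tested. Likeness was measured as the root mean square difference over the 6 arrays between log2 values, each centred on its own mean. The most alike pair among these 6 was Crabp1 with Crabp2, at 0.068, followed by Rdh10 with Dhrs3, at 0.0902. Across these 6 probe sets the highest array was 1.25 to 1.61 times the lowest.

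Patterns of other genes were compared with those members whose own SD over the 6 arrays reached 0.2, since candidates were probe sets above background with an SD of at least 0.2. Dhrs3 was closest to Septin3 (0.035) and Arhgef12 (0.037), out of 5960 candidates. For Aldh1a2 and the 1417642_at probe set of Aldh1a3, which were mostly at background, the closest of 5961 candidates were Hspb1 (0.18) and 1700001G17Rik (0.20), and Uroc1 (0.42) and Dnd1 (0.45). The values describe these 6 arrays alone.

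Other genes of retinoid handling were taken from a list of 40, of which 34 were measured, each by its brightest probe set. None passed over all probe sets, 20 had a lower and 14 a higher mean in mutants, and the median difference was -0.08. At an unadjusted p under 0.05, 1 was called, against 5.76% of all probe sets. It was Fabp5, which carries fatty acids and can also bind retinoic acid and hand it to another nuclear receptor. Its probe set 1416021_a_at gave 7246, 8217 and 7489.5 in mutants, against 6543, 5850.1 and 5776 in wild type. Every mutant array lay above every wild-type array, with a difference of 0.34 (SE 0.12, 95% interval 0.06 to 0.61, limma adjusted p = 0.833). A second Fabp5 probe set, 1416022_at, gave 4540.0, 6054 and 5680.4 in mutants, against 4467, 4538 and 3932 in wild type. Its difference was 0.32 (SE 0.15, limma adjusted p = 0.833), again with no overlap of the groups, although mutant replicate 1 and wild-type replicate 2 nearly met. With the 18S covariate the first probe set had a difference of 0.22. Both Fabp5 probe sets are among the brightest 10% of all probe sets. Of those, 36.0% had a lower mean in mutants and the median difference was 0.04. In 348 of these 2263 probe sets the groups did not overlap.

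The next of this list by p were Aldh8a1, Rlbp1, Rpe65 and Bco1. Aldh8a1, a further aldehyde dehydrogenase, gave 93.0 ± 31.3 in mutants and 139 ± 27.1 in wild type (SD, n = 3 each). Bco1, which cleaves beta-carotene to retinaldehyde, gave 79.1 ± 9.24 in mutants and 96.4 ± 6.53 in wild type. Rlbp1 and Rpe65, genes of the visual cycle, lay below background on all arrays. Retsat, retinol saturase, had a difference of -0.06 (SE 0.19) with its brighter probe set 1424715_at, and 1.38 (SE 0.11, limma adjusted p = 0.0695) with 1424716_at, which lay below background on all 6 arrays. Retsat and the second Fabp5 probe set were named after their values were seen.

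Of 13 receptors of retinoic acid and their partners, 11 were measured, 8 with a lower and 3 with a higher mean in mutants. The median difference was -0.20, and none passed. At an unadjusted p under 0.05, 1 of the 11 was called, against 5.76% of all probe sets. It was Zfp423, a zinc finger protein that works with retinoic acid receptors. It gave 315, 302 and 431 in mutants, against 444, 613 and 837 in wild type. The highest mutant value lay just under the lowest wild-type value, which came from replicate 1. The difference was -0.80 (SE 0.25, limma adjusted p = 0.833), and -0.35 without the 2 wild-type arrays of high 18S signal. Rara gave 149 ± 12.7 in mutants and 234 ± 77.5 in wild type (SD, n = 3 each), a difference of -0.55 (SE 0.25), which turned to 0.017 without these 2 arrays. Rxra gave 0.40 (SE 0.17) with its brighter probe set and -0.41 (SE 0.17) with 1454773_at, also named after its value was seen, so its probe sets pointed in opposite directions. Without wild-type replicate 2 the brighter one gave 0.26. Rarg had a difference of -0.28 (SE 0.15), or -0.071 with the 18S covariate, and Rxrg was below background on all arrays.

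Among 32 genes known to be induced by retinoic acid, 24 were measured, 17 with a lower and 7 with a higher mean in mutants. Of these, Rarb, Stra6, Hoxb2, Hoxa2, Gbx2, Pax6 and Pdgfra stand in lists above too, so the counts are not separate. The median difference was -0.08, and none passed. At an unadjusted p under 0.05, 2 of the 24 were called, against 5.76% of all probe sets. These were Hoxb3 and Hoxa3, Hox genes of the segments behind rhombomere 4. Hoxb3 had a difference of -0.70 (SE 0.18, limma adjusted p = 0.740), or -0.44 without the 2 wild-type arrays of high 18S signal, and Hoxa3 of -0.40 (SE 0.16, limma adjusted p = 0.833). Hoxb2 and Gbx2 followed at -0.26 (SE 0.13) and -0.30 (SE 0.16), where Gbx2 was -0.17 without mutant replicate 3, and Rarres2 lay below background on all arrays. Rarb, a receptor gene with a response element of the same kind as Cyp26a1, gave 162 ± 42.2 in mutants and 176 ± 29.4 in wild type (SD, n = 3 each), a difference of -0.13 (SE 0.20, 95% interval -0.61 to 0.36).

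**Figure D4:**
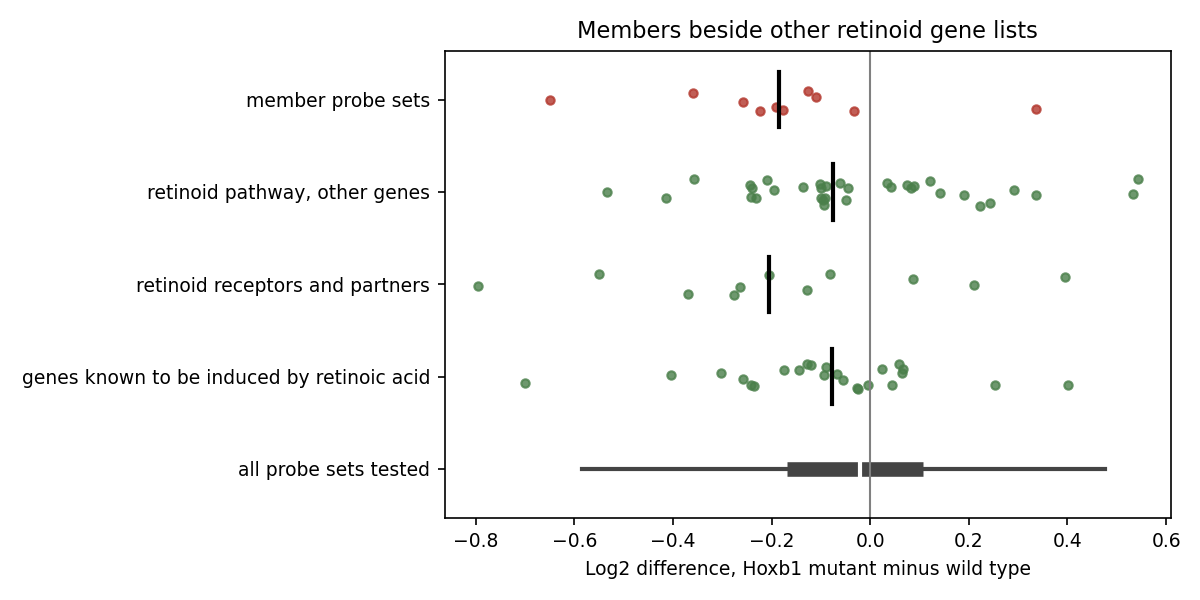
Log2 difference, Hoxb1 mutant minus wild type, of the 10 member probe sets (red) and of the brightest probe set of each gene in 3 retinoid lists (green), with a black bar at each median; for all 22626 probe sets the thick bar spans the 25th to 75th percentile and the thin line the middle 95%. Medians were -0.18, -0.08, -0.20 and -0.08, against -0.02 for all, and the thin line runs from -0.58 to 0.48, with 1 member value, -0.65, outside it.

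**Figure D5:**
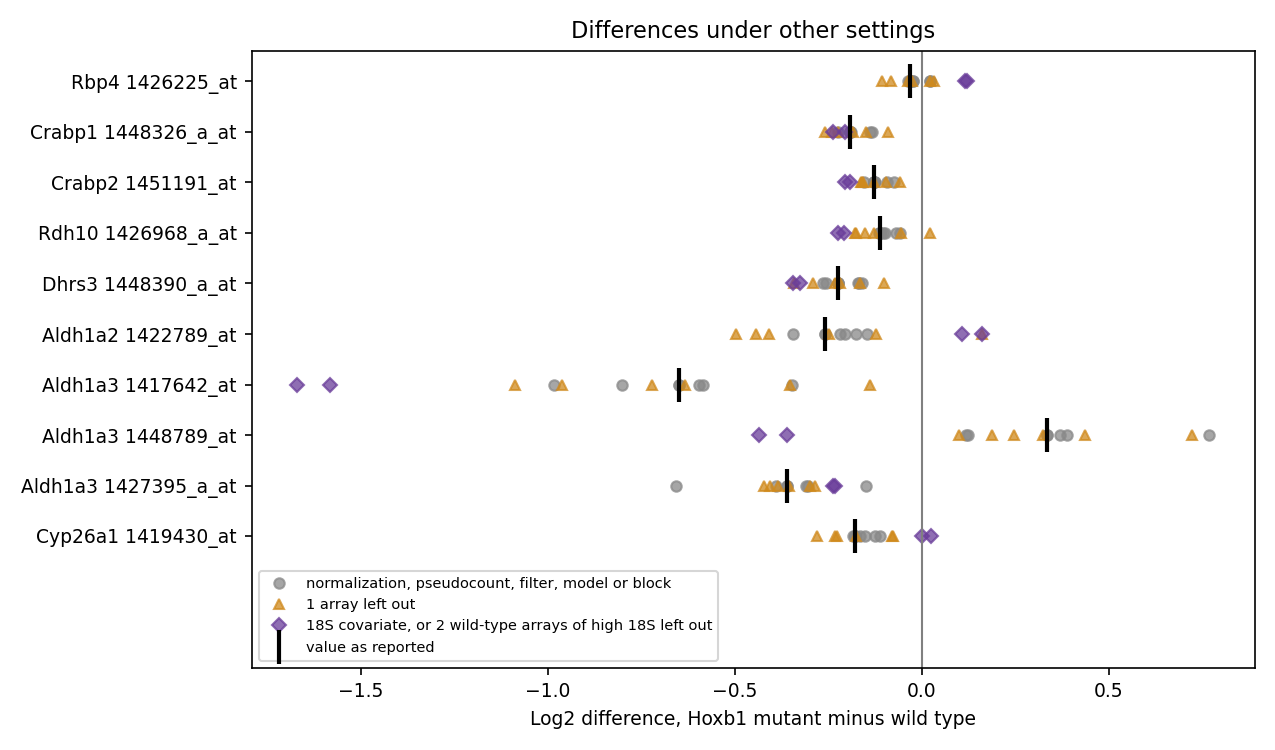
Log2 difference, Hoxb1 mutant minus wild type, of each member probe set as reported (black bar) and under other settings (grey circles), with 1 array left out (orange triangles) and with either 18S setting (purple diamonds). Crabp1, Crabp2 and Dhrs3 stayed below 0 in every setting run, and so did 2 of the 3 Aldh1a3 probe sets, while Cyp26a1 reached 0.0010 and 0.026 in the 18S settings.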

How the data were processed

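The authors deposited intensities of 22690 probe sets on each Affymetrix mouse 430A array, linear in scale as the values show. The submitters' processing notes name affy, with no version; no label gives the summary method. Each array's mean, with 2% trimmed at each end, was 500.0. The 64 control probe sets were left out, and the other 22626 were tested as log2(intensity + 16) by limma (version 3.58.1, run under R 4.3.3; lmFit and plain eBayes on all 6 arrays with group as the sole term, 2-sided, Benjamini-Hochberg over all probe sets, threshold 0.05). The background level is the 95th percentile of 27 bacterial control probe sets. A fold against background sets dimmer arrays to that level, and is no lower bound where arrays of both groups were dimmer. Gene symbols are those of the platform annotation (20380 probe sets with 1 symbol, 691 with several), updated through Entrez identifiers for 20351. Array medians were 214, 191 and 187 in mutant replicates 1 to 3, against 204, 208 and 204 in wild-type replicates 1 to 3. No 2 arrays were identical. The fit was tested on simulated data with known changes, all larger than those measured for members, so its power at the members' sizes was not tested. Promoter sequence is from RefSeq, GRCm38.p6. The genes named were all members, up to 5 of smallest p per list, and the 2 most similar patterns for each member whose SD reached 0.2; lists and members were chosen with earlier results of these data known. The number of arrays limits the precision. Alternatives covered the normalization, pseudocounts of 1 and 64, a filter on dim probe sets, the variance model, array weights, the replicate block, the 18S signal and leaving out arrays.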

Additional observations from a re-analysis of the deposited data

How the results depend on the processing

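Each member probe set was refitted under up to 16 alternatives, and none passed an adjusted p under 0.05 in any of them (limma). Over all probe sets that count was 0 as reported, 3 with quantile normalization, 4 with array medians centred, 2 without the dimmest 33.3%, 3 with trend and robust settings and 4 with array weights, and 0 without each array in turn. The count at an unadjusted p under 0.05 was 1303 as reported, 2093 with array weights and 1059 to 1975 without each array, the highest without mutant replicate 1. Among members that count, 1 as reported, was 0 with array medians centred, a pseudocount of 64, the dimmest 33.3% left out, trend and robust settings, the replicate block, and 1 probe set per gene, and 0 to 2 without each array. It was 0 without mutant replicate 2, wild-type replicate 2 or wild-type replicate 3, and 2 without wild-type replicate 1. The median member difference was -0.18 as reported, -0.13 with array medians centred, -0.12 with array weights and -0.23 to -0.11 without each array, the last without mutant replicate 3.

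Rbp4 gave 0.022 with quantile normalization and with array medians centred, 0.12 with the 18S covariate, 0.12 without the 2 wild-type arrays of high 18S signal, and -0.11 to 0.034 without each array. Under the 2 settings that concern 18S signal, covariate first, Aldh1a2 gave 0.16 and 0.11, Aldh1a3 probe set 1448789_at gave -0.36 and -0.43, and Cyp26a1 gave 0.0010 and 0.026. Without each array Aldh1a2 gave -0.50 to 0.16, Aldh1a3 probe set 1448789_at 0.099 to 0.72 and Rdh10 -0.18 to 0.022. Rara gave 0.017 without the 2 wild-type arrays. Beyond the 18S values, the cause was not tested. The labels do not say whether the shared replicate numbers mark pairs of samples. Deviations of same-numbered arrays correlated at -0.017 to 0.053, which cannot settle this with 3 arrays per group. The wild-type array of highest correlation was the same-numbered one for mutant replicates 1 and 3, and replicate 3 for mutant replicate 2. The replicate block changed no call at the adjusted threshold among members. Aldh1a2 and Aldh1a3 were removed by the filter on dim probe sets and have no value there. Signal near background limits both genes.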
